A study of Mus musculus with 2 samples.

Results

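*Wnt3* and *Ccnd1* are 2 of the 19465 genes counted in spatial transcriptomes of mouse skin, and they were followed across 4 sections and their tissue layers. Both were chosen by their levels in these sections, low *Wnt3* and high *Ccnd1* in 1 of the 4, so their values are given as a description with no test. *Wnt3* (ENSMUSG00000000125) lies on chromosome 11 from 103774175 to 103818021, and *Ccnd1* (ENSMUSG00000070348) on chromosome 7 from 144929931 to 144939831 (GRCm38.p6). The animals were female SKH-1 mice, a hairless strain, aged 10 to 12 weeks. The groups were skin exposed to ultraviolet radiation (UVR) and given 0.1% retinol, UVR-exposed skin given 0.03% 9-cis HPR, UVR-exposed skin without either agent, and normal skin as the control. They are called retinol, HPR, UVR and control skin below. The radiation dose and the length of treatment are not given in the sources used here. Each group was 1 section, so the spread between animals could not be measured, and every interval below covers counting error only.

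The sections lay in pairs on 2 capture areas, both treated skins on 1 area and UVR and control skin on the other. Treatment and capture area therefore cannot be told apart when treated skin is set against UVR or control skin. The labels call the members of each pair upper and lower, which were read here from the image. The spot grid runs the other way, and a reading by the grid exchanges the groups within each area. Under that reading the section called UVR below is the control and the section called control is the UVR-exposed one. Every comparison with UVR skin uses the same UVR section, and the 430 spot barcodes found on both areas are position codes of the slide, not shared tissue.

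*Wnt3* encodes a secreted ligand that binds Frizzled receptors and the co-receptors LRP5 and LRP6 and stabilises beta-catenin, which with TCF/LEF factors switches on genes such as *Axin2*. Keratinocytes make several Wnt ligands, and the pathway is known for upholding basal epidermal cells and for hair follicle growth. *Ccnd1* encodes cyclin D1, which activates the kinases CDK4 and CDK6 and so moves cells out of rest and toward DNA synthesis. It is transcribed in proliferating basal keratinocytes, and beta-catenin and growth factor signalling are both known to raise it in several cell types.

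The region around the start of *Wnt3* is shown beside that of *Wnt3a*, its closest relative, because the members of this pair lay on opposite sides of UVR skin in both treated skins. Of *Wnt3* and *Ccnd1*, only *Wnt3* had a window among the promoters used here. Each window runs from 250 bases before the start to 30 bases from the start on (RefSeq, GRCm38.p6). Capitals mark letters of the TCF/LEF core, ACAAAG or TCAAAG, or of a retinoic acid receptor recognition hexamer, AGGTCA or AGTTCA, on either strand. The *Wnt3* window is chr11:103773925-103774204 on the plus strand, and the *Wnt3a* window is chr11:59290722-59291001 on the minus strand.
Wnt3: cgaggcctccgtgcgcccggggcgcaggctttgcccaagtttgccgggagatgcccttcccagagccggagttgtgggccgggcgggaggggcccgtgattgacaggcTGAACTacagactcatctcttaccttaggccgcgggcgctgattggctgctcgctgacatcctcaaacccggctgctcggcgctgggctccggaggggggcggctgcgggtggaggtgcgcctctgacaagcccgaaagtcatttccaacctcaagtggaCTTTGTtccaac
Wnt3a: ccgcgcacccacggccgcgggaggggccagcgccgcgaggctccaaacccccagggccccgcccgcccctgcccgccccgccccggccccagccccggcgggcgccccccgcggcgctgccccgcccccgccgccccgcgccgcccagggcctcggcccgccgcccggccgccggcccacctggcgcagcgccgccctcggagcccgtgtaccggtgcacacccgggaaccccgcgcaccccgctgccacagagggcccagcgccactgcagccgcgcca
The *Wnt3* window held AGTTCA on its minus strand at bases 109 to 114, and the TCF/LEF core on its minus strand at bases 269 to 274, counted from its first base. The *Wnt3a* window held none of these letters. Of 32851 promoter windows of this length, 29.9% held the TCF/LEF core, 13.0% AGTTCA and 15.3% AGGTCA, so such matches are common. G and C made up 65.4% of the *Wnt3* window and 86.4% of the *Wnt3a* window, against a median of 52.5% over all windows.

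Counts are unique molecular identifiers (UMIs), and levels are counts per 1000000 UMIs (CPM), over spots of 200 UMIs or more. Of such spots, retinol skin had 544 holding 1414976 UMIs, HPR skin 644 holding 1249928, UVR skin 647 holding 2558616 and control skin 339 holding 326095. Clustering without the members or their pathway genes gave 8 regions. The 3 of them with *Ticrr*, *Cntfr* and *Mcm2* (region 2), *Krt77*, *Krt10* and *Lor* (region 3) or *Crct1*, *Cdsn* and *Cnfn* (region 6) among their leading genes formed the outer layer, taken here as epidermal. All 8 basal keratinocyte markers and 11 of 12 markers of spinous and cornified cells had UMIs in the outer spots of every section. Detection alone does not set the layer apart, because at least 8 of 9 muscle markers had UMIs there too. Against the other regions, the median log2 fold in regions 2, 3 and 6 was 0.68, 0.40 and -0.94 for basal markers. It was -1.38, 1.27 and 1.49 for spinous and cornified markers and -6.35, -3.92 and -5.48 for muscle markers. The outer layer held 200 spots with 1175786 UMIs in retinol skin, 229 with 1013097 in HPR skin, 282 with 2127178 in UVR skin and 115 with 185838 in control skin. Region 3 supplied 0, 1 and 0 outer spots of retinol, HPR and UVR skin and 106 of the 115 of control skin, so outer comparisons with control skin set different regions side by side. A spot covers several cells, and fewer cells that transcribe a gene and less RNA per cell cannot be told apart.

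*Wnt3* was abundant in the outer spots of 3 sections and low in UVR skin. Retinol skin had 515 *Wnt3* UMIs, or 438 CPM (95% interval 401 to 478), and HPR skin had 326 UMIs, or 322 CPM (288 to 359). UVR skin had 142 UMIs, or 66.8 CPM (56.2 to 78.7), and control skin 66 UMIs, or 355 CPM (275 to 452). The interval of UVR skin overlapped none of the other 3. *Wnt3* was 6.56-fold higher (5.44 to 7.96) in retinol than in UVR skin, where 5.17% of 2418 genes were at least 2-fold higher. It was 4.82-fold higher (3.95 to 5.91) in HPR than in UVR skin, where 2.77% of 2344 genes were at least 2-fold higher. These shares count genes that reached 100 UMIs in the pair of sections, and among them *Wnt3* ranked 8 from the highest in retinol skin and 10 in HPR skin. The doses of retinol and 9-cis HPR differed, so the treated skins are given side by side and not compared.

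UVR skin had 5.32-fold less *Wnt3* than control skin (3.91 to 7.17), and 6.02% of 2027 genes were at least 2-fold lower there. Both treated skins lay near control skin. The ratio was 1.23 (0.953 to 1.62) for retinol over control skin and 0.906 (0.694 to 1.20) for HPR over control skin, so in outer spots neither differed from control skin beyond counting error. Over whole sections, in which 83.1% of the UMIs of retinol skin and 57.0% of those of control skin were outer, the ratios were 1.74 (1.36 to 2.26) for retinol over control skin, beyond counting error, and 1.24 (0.959 to 1.63) for HPR over control skin. In outer spots the order from high to low was retinol, control, HPR and UVR skin, and UVR skin alone stood apart from control skin. *Wnt3* thus passed 2-fold in neither comparison of treated with control skin, in which 16.4% of genes were at least 2-fold higher and 5.38% lower with retinol, and 11% higher and 6.47% lower with 9-cis HPR.

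*Ccnd1* ran the other way, with UVR skin high and the other 3 sections low. Outer spots of retinol skin had 27 *Ccnd1* UMIs, or 23.0 CPM (15.1 to 33.4), and those of HPR skin 38 UMIs, or 37.5 CPM (26.5 to 51.5). UVR skin had 423 UMIs, or 199 CPM (180 to 219), and control skin 7 UMIs, or 37.7 CPM (15.1 to 77.6). The interval of UVR skin again overlapped none of the others. *Ccnd1* was 8.66-fold lower (5.87 to 13.3) in retinol than in UVR skin, where 10% of genes were at least 2-fold lower, and ranked 7 from the lowest. It was 5.30-fold lower (3.80 to 7.60) in HPR than in UVR skin, where 9.94% of genes were at least 2-fold lower, and ranked 12 from the lowest.

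UVR skin had 5.28-fold more *Ccnd1* than control skin (2.54 to 13.2), and 18.7% of genes were at least 2-fold higher in that comparison. Against control skin the ratio was 0.610 (0.259 to 1.66) in retinol skin and 0.996 (0.439 to 2.64) in HPR skin. With 7 UMIs in control skin, the interval of retinol skin allows a level more than 2-fold lower, and that of HPR skin a difference past 2-fold in either direction. The order from high to low was UVR, control, HPR and retinol skin, and no section other than UVR skin differed from control skin beyond counting error.

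**Figure D1:**
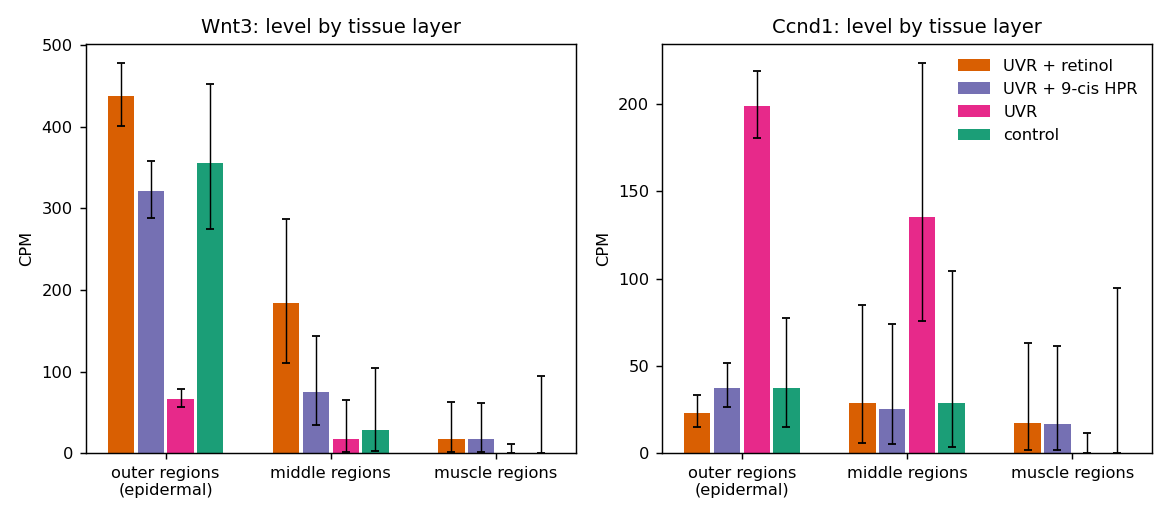
Levels of *Wnt3* (left) and *Ccnd1* (right) in CPM in the outer, middle and muscle layers. Bars stand for the 4 sections and lines for exact Poisson 95% intervals. In the outer layer UVR skin is lowest for *Wnt3*, at 66.8 CPM, and highest for *Ccnd1*, at 199 CPM.

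Under the reading by the spot grid, the *Wnt3* log2 ratio in outer spots became -0.14 for retinol over UVR skin, 0.30 for HPR over UVR skin and 2.41 for UVR over control skin. The *Ccnd1* log2 ratios became -0.01, -0.71 and -2.40 in the same order. Under either reading, 1 section of the 4 combined little *Wnt3* with much *Ccnd1*. Outer spots held 19.1 *Wnt3* UMIs per *Ccnd1* UMI (13.0 to 29.2) in retinol skin, 8.58 (6.12 to 12.3) in HPR skin, 0.336 (0.276 to 0.407) in UVR skin and 9.43 (4.33 to 24.4) in control skin. Each gene was read by its own probes, so this balance can be set against itself between sections but does not say which transcript was more abundant.

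The genes also differed in how their UMIs were spread over spots. *Wnt3* was found in 70.5% of outer spots of retinol skin, 55.9% in HPR skin, 28.0% in UVR skin and 31.3% in control skin. Single spots held up to 17, 12, 7 and 4 *Wnt3* UMIs in these sections. Spots with at least 3 UMIs held 82.1% of the *Wnt3* UMIs of retinol skin, 66.0% in HPR skin, 43.7% in UVR skin and 48.5% in control skin. *Ccnd1* was found in 10% of outer spots of retinol skin, 13.5% in HPR skin, 52.1% in UVR skin and 6.09% in control skin. The highest spots held 3, 3, 12 and 1 *Ccnd1* UMIs.

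Depth differed between the sections, with medians of 4974, 3426, 5391.5 and 1259 UMIs per outer spot in retinol, HPR, UVR and control skin. Each outer spot was therefore thinned to 500 UMIs, which left out 4, 26, 11 and 20 shallower spots in the same order. *Wnt3* was then found in 16.6% of spots of retinol skin, 13.9% of HPR, 2.75% of UVR and 13.6% of control skin. *Ccnd1* was found in 0.944%, 2.36%, 8.19% and 1.89% of the thinned spots of the same sections. At equal depth UVR skin was thus still lowest for *Wnt3* and highest for *Ccnd1*. Among outer spots of 1000 to 5000 UMIs, a bin chosen after the data were seen, *Wnt3* had 290 CPM in retinol, 294 in HPR, 54.7 in UVR and 400.3 CPM in control skin. In that bin *Ccnd1* had 27.1, 53.4, 186 and 30.8 CPM.

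Most UMIs of both genes lay in the outer layer. It held 96.1% of the *Wnt3* UMIs of retinol skin, 96.4% in HPR, 98.6% in UVR and 93.0% in control skin, while 83.1%, 81.1%, 83.1% and 57.0% of all UMIs of these sections lay there. For *Ccnd1* the outer share was 84.4% of 32 UMIs in retinol skin, 88.4% of 43 in HPR skin, 96.6% of 438 in UVR skin and 70% of 10 in control skin. The middle layer, with *Igha*, *Col1a2* and *Col3a1* among the leading genes of region 4 and *Atp6v0d2*, *Ctss* and *Ctsz* among those of region 7, held 19 *Wnt3* UMIs (184 CPM) in retinol skin, 9 (75.8 CPM) in HPR skin and 2 each in UVR and control skin. All of these lay in region 4 and none in region 7. The middle layer held 3 *Ccnd1* UMIs in each treated skin, 15 (135 CPM) in UVR skin and 2 in control skin, so the section with most of each transcript in the outer layer also had most of it in the middle layer.

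The muscle layer served as background, as a layer that should lack epidermal transcripts. It held 2 *Wnt3* and 2 *Ccnd1* UMIs in each treated skin and none of either in UVR skin, where 0 of 312869 UMIs allows up to 9.59 CPM at 3 counts (exact Poisson limit 11.8), or in control skin, where 0 of 38915 allows up to 77.1 CPM (94.8). *Wnt3* was found in 1.53% of muscle spots of retinol skin and 1.03% of HPR skin, at median depths of 739 and 556 UMIs, and *Ccnd1* in the same shares. The sebaceous region led by *Fa2h* held 3 *Wnt3* UMIs and 1 *Ccnd1* UMI in its 52 control spots.

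Along the skin, *Wnt3* differed by a smaller ratio between image sides than *Ccnd1* in every section. The *Ccnd1* intervals of the sides lay apart in UVR skin alone, and control skin had 5 and 2 *Ccnd1* UMIs. In the left and the right image side of the outer layer *Wnt3* had 495 and 389 CPM in retinol skin, 288 and 350.3 CPM in HPR skin, 57.0 and 73.2 CPM in UVR skin, and 379 and 334 CPM in control skin. Each side of UVR skin lay below either side of the other sections. *Ccnd1* had 11.1 and 33.1 CPM in the left and the right side of retinol skin, 47.6 and 29.0 CPM in HPR skin, 129 and 244 CPM in UVR skin, and 57.5 and 20.2 CPM in control skin. Both sides of UVR skin were again above either side of the others. The *Ccnd1* log2 ratio for UVR over control skin was 1.17 in left sides and 3.59 in right sides, where control skin had 2 UMIs, and for HPR over UVR skin it was -1.44 and -3.07.

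**Figure D2:**
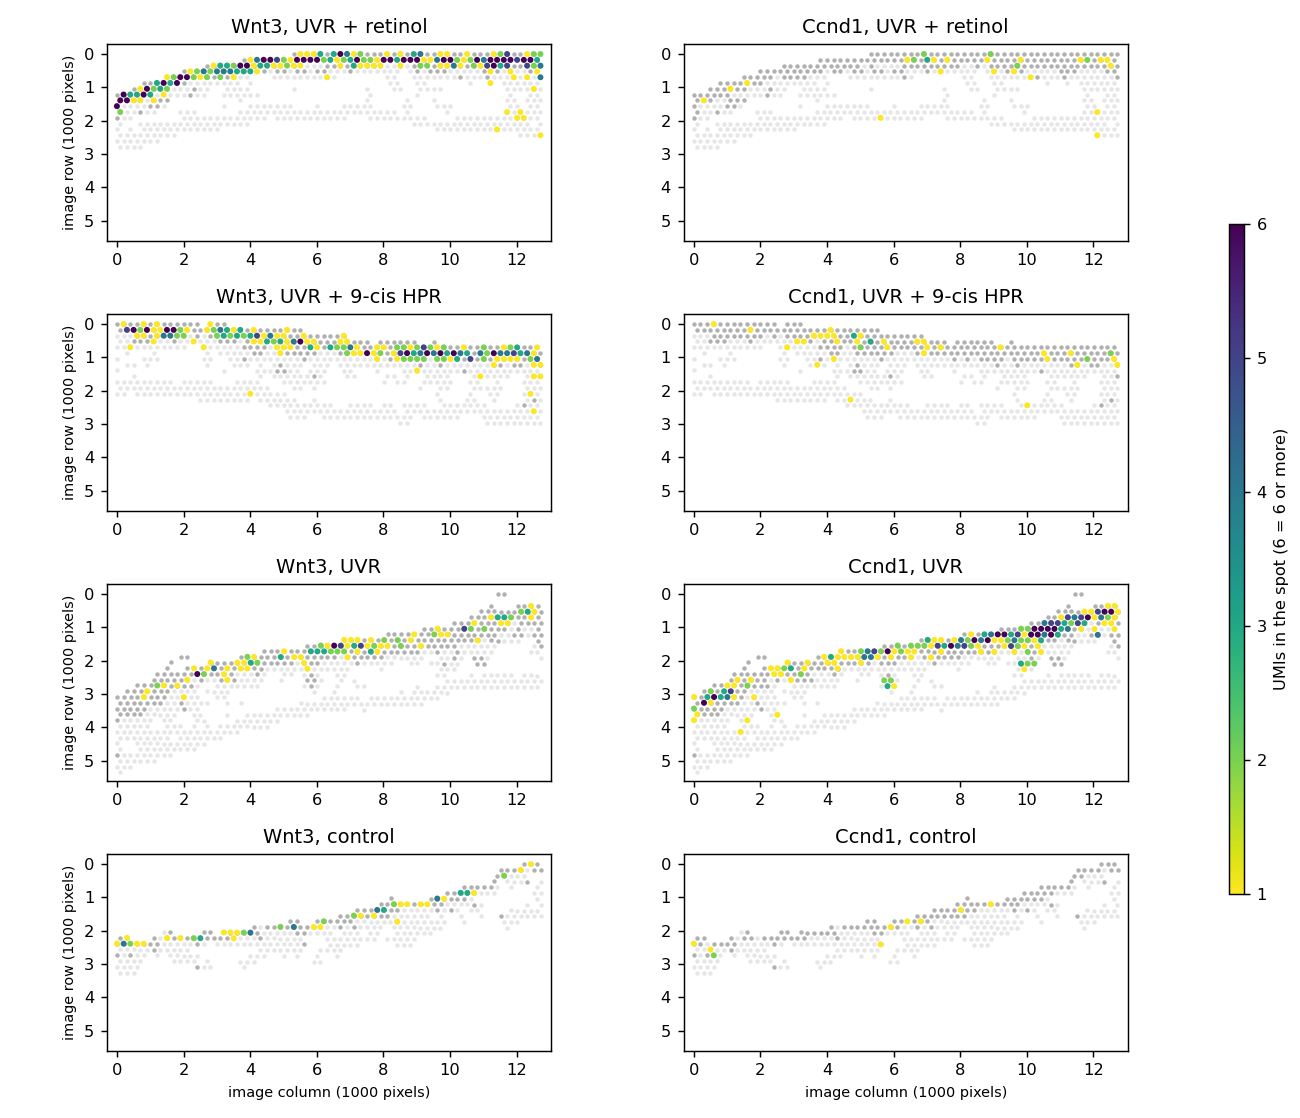
Spots with at least 200 UMIs at their image position (both axes in 1000 pixels from the section's edge), for *Wnt3* (left) and *Ccnd1* (right) in the 4 sections. Dark grey spots are outer spots without a UMI, light grey spots are the other layers, and colour gives UMIs in the spot. *Wnt3* spots run along the outer layer of both treated skins, while *Ccnd1* is dense in UVR skin, at 244 CPM in the right side of its outer layer and 129 CPM in the left.

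Within the outer layer, spots were ordered from basal (*Krt5*, *Krt14*, *Krt15*) to cornified (*Lor*, *Flg*, *Krt10*, *Hrnr*, *Crct1*) transcripts and cut into 3 equal parts. The parts are relative to each section: the median log2 ratio of basal to cornified transcripts at the basal end, in the middle part and at the cornified end was 4.26, 1.94 and -1.35 in retinol skin, 3.60, 1.17 and -2.27 in HPR skin, 5.22, 3.10 and -0.70 in UVR skin, and -0.30, -1.55 and -2.69 in control skin. The basal end of control skin thus lay nearest the cornified end of UVR skin in this ratio, and equal parts are not the same position across sections. *Ccnd1* was highest at the basal end of UVR skin, with 284 CPM there, 217 CPM in the middle part and 128 CPM at the cornified end, a basal over cornified ratio of 2.23 (1.74 to 2.86). Retinol skin had 48.0, 13.1 and 12.9 CPM from basal to cornified and a ratio of 3.72 (1.20 to 15.3) on 16 and 4 UMIs. HPR skin had 27.2, 45.2 and 37.5 CPM and a ratio of 0.726 (0.255 to 2.06), and control skin 2, 2 and 3 UMIs. A basal lean of *Ccnd1* was therefore measured in UVR and retinol skin. In HPR skin the ratio pointed the other way, within counting error, on 9 UMIs at each end. Control skin had too few *Ccnd1* UMIs to tell.

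*Wnt3* was found in all 3 parts of each section. Its basal over cornified ratio was 1.29 (1.00 to 1.67) in retinol skin, 2.62 (1.81 to 3.85) in HPR skin, 1.32 (0.822 to 2.10) in UVR skin and 1.50 (0.727 to 3.0) in control skin. HPR skin had 414 CPM at the basal end, 341 in the middle part and 158 at the cornified end, and its ratio was the largest of the 4, with an interval that overlapped those of UVR and control skin. In UVR skin *Wnt3* stayed between 48.7 and 91.7 CPM in all 3 parts, below every part of the other sections. In region 2 and region 6 *Wnt3* had 461 and 387 CPM in retinol skin and 372 and 245 CPM in HPR skin. UVR skin had 86.1 (71.4 to 103) and 29.1 (18.0 to 44.5) CPM, below both treated skins in each region. These intervals of UVR skin lay apart, although its basal over cornified ratio showed no lean beyond counting error. *Ccnd1* in region 2 and region 6 had 28.6 and 10.8 CPM in retinol skin, 37.7 and 37.4 CPM in HPR skin, and 234 and 130 CPM in UVR skin.

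**Figure D3:**
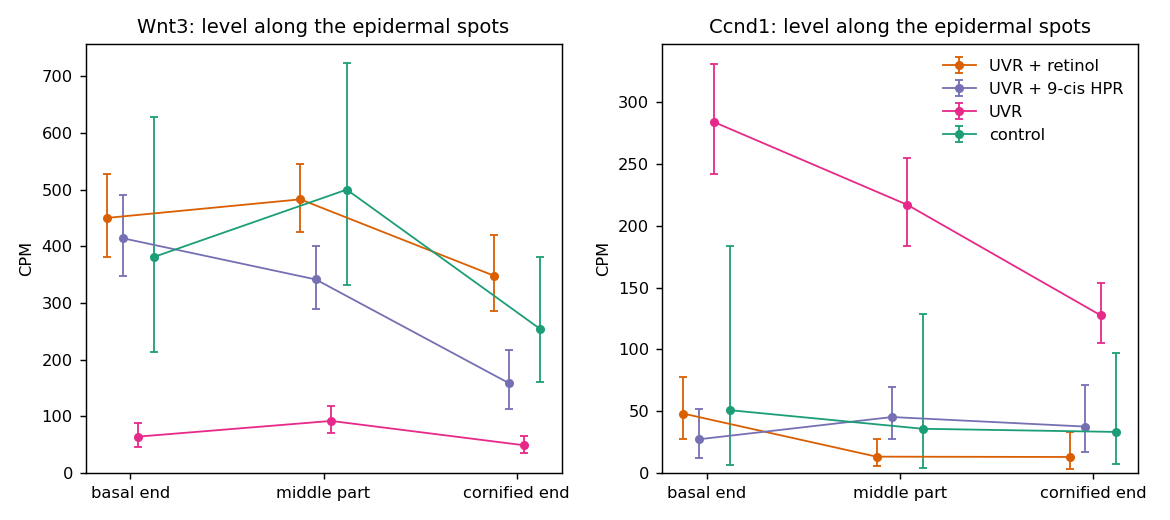
Levels of *Wnt3* (left) and *Ccnd1* (right) in CPM in 3 equal parts of the outer spots, from the basal to the cornified end. Points stand for the sections and lines for exact Poisson 95% intervals. *Ccnd1* in UVR skin declines from 284 to 128 CPM from the basal to the cornified end, and *Wnt3* in UVR skin is lowest in each part.

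Spots with both transcripts were a minority of the outer spots of every section. Of the outer spots, 18 held both, 123 *Wnt3* alone, 2 *Ccnd1* alone and 57 neither in retinol skin. HPR skin had 26 with both, 102 with *Wnt3* alone, 5 with *Ccnd1* alone and 96 with neither. UVR skin had 59 with both, 20 with *Wnt3* alone, 88 with *Ccnd1* alone and 115 with neither, and control skin had 3, 33, 4 and 75. In spots with and without *Wnt3*, *Ccnd1* was found in 12.8% and 3.39% in retinol skin and in 20.3% and 4.95% in HPR skin. In UVR skin it was found in 74.7% of spots with *Wnt3* (63.6 to 83.8) and in 43.3% of spots without it (36.4 to 50.5), and in control skin in 8.33% and 5.06%. With all UMIs counted, *Ccnd1* was thus more frequent beside *Wnt3* in every section, with overlapping intervals in control skin and in retinol skin (7.74 to 19.4 and 0.413 to 11.7).

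Spots with both transcripts were deeper than spots with neither, at medians of 9976.5 against 2009 UMIs in retinol skin, 6767 against 1489 in HPR skin, 14360 against 2259 in UVR skin and 3618 against 785 in control skin. In spots thinned to 500 UMIs, the mean over 20 draws, *Ccnd1* was found in 1.53% of spots with *Wnt3* and 0.826% of spots without it in retinol skin, in 3.02% and 2.26% in HPR skin, in 8.05% and 8.20% in UVR skin, and in 1.94% and 1.89% in control skin. In all 4 sections fewer than 1 spot per draw held both. At that depth co-occurrence could therefore not be measured. Thinned to 1000 UMIs, 1.40, 2.60, 2.20 and 0.40 spots per draw held both in retinol, HPR, UVR and control skin, and the shares of spots with *Ccnd1* with and without *Wnt3* were 2.47% and 2.19%, 5.27% and 3.32%, 14.9% and 17.0%, and 2.11% and 5.21%. Among unthinned spots of 1000 to 5000 UMIs the shares were 6.67% and 4.35% in retinol skin, 18.9% and 7.02% in HPR skin, 38.5% and 31.2% in UVR skin, and 6.90% and 6.06% in control skin, and above that range they were 81.8% and 70.2% in UVR skin. The gap within these bins was smaller than over all spots in UVR skin. Above 5000 UMIs the shares were 15.8% and 0% in retinol skin and 22.2% and 8.33% in HPR skin, with overlapping intervals. None of these gaps was tested. Among spots adjacent to a *Ccnd1* spot in UVR skin 67.9% held *Ccnd1*, against 45.7% of those adjacent to a spot without it. The part of depth in that difference was not tested.

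**Figure D4:**
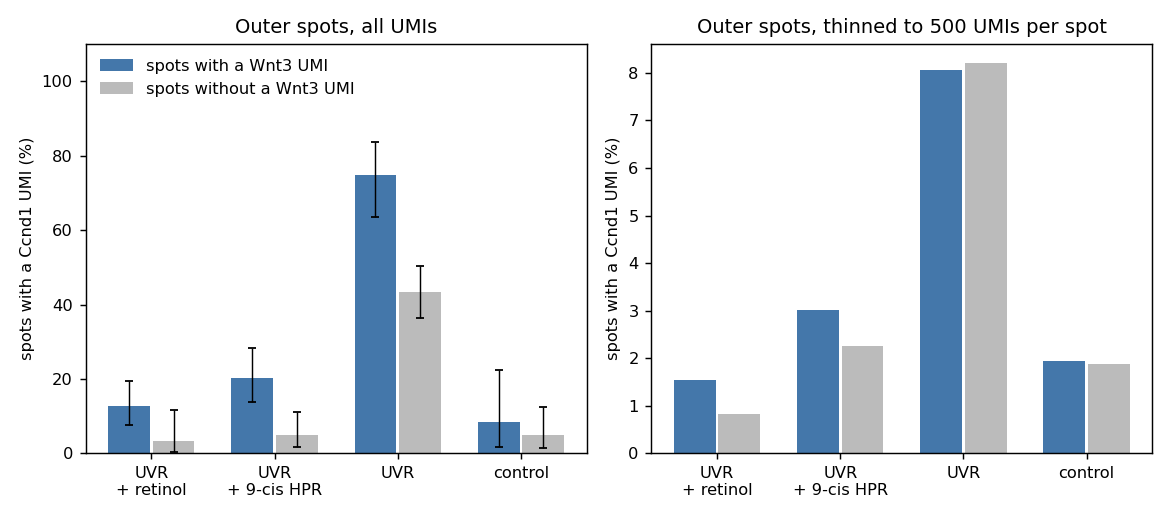
Share of outer spots with a *Ccnd1* UMI among spots with and without a *Wnt3* UMI, with all UMIs (left, exact binomial 95% intervals) and thinned to 500 UMIs per spot (right, means of 20 draws). The gap in UVR skin, 74.7% against 43.3%, is 8.05% against 8.20% after thinning, where fewer than 1 spot per draw held both.

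The Wnt ligands, *Wnt3* among them, did not share a direction. Of 19 listed, 6 had at least 20 UMIs over both sections in the retinol comparison, and 3 were at least 2-fold higher in retinol than in UVR skin and 2 lower, where 7.04% of all genes with that minimum were higher and 14% lower. The median log2 ratio was 0.51, against -0.09 over all genes. With 9-cis HPR 8 were measured, 3 higher and 1 lower, with a median of 0.68 against -0.18 and a background of 5.08% higher and 15.7% lower. In UVR over control skin 6 were measured, none higher and 2 lower, with a median of 0.24 against 0.04, where 17.6% of genes were higher and 13.7% lower. The same backgrounds stand beside the lists that follow.

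*Wnt3a*, a canonical ligand like *Wnt3*, had 24.7 CPM in retinol skin, 37.5 in HPR, 90.3 in UVR and 64.6 CPM in control skin. It was 3.66-fold lower (2.47 to 5.61) in retinol and 2.41-fold lower (1.69 to 3.50) in HPR than in UVR skin, opposite to *Wnt3*, the relative whose start region is printed with its own. *Wnt5a*, known mainly for beta-catenin-independent signalling, was 2.63-fold lower (2.19 to 3.18) with retinol and 1.77-fold lower (1.50 to 2.10) with 9-cis HPR than in UVR skin. *Wnt7b*, a ligand of keratinocytes, was also lowest in UVR skin. It had 111 CPM in retinol skin, 69.1 in HPR, 40.0 in UVR and 129 CPM in control skin, and was 2.79-fold higher (2.11 to 3.71) in retinol and 1.73-fold higher (1.24 to 2.40) in HPR than in UVR skin. It was 3.23-fold lower (1.96 to 5.13) in UVR than in control skin. It was also 1.87-fold lower (1.12 to 3.01) in HPR than in control skin. *Wnt10a*, which is needed for hair and tooth development, was 2.41-fold higher (2.23 to 2.60) with retinol and 1.49-fold higher (1.36 to 1.63) with 9-cis HPR than in UVR skin, at 1338 CPM in retinol, 828 in HPR, 555 in UVR and 559.6 CPM in control skin. *Wnt4* differed by less than counting error in all 3 comparisons. The other ligands counted as higher in HPR than in UVR skin were *Wnt16*, 8.17-fold (3.85 to 19.3), and *Wnt6*, 2.97-fold (1.34 to 6.83). They had 9 and 12 UMIs in UVR skin and are named after their values were seen.

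Of the receptors and secretion factors, none of 10 measured was past 2-fold in either treated skin against UVR skin, and the medians were -0.32 with retinol and -0.02 with 9-cis HPR. In UVR over control skin 2 of 9 were higher, the Wnt-modifying enzyme gene *Porcn* (2.27) and the co-receptor gene *Lrp6* (2.01), each on 4 or fewer control UMIs and within counting error, and the R-spondin receptor gene *Lgr6* was 4.29-fold lower (1.38 to 11.5), with a median of 0.39. *Lrp6* and *Lgr6* are named after their values were seen. *Fzd1*, a Frizzled receptor, was 1.51-fold higher (1.26 to 1.80) in retinol than in UVR skin, and *Lrp5*, a co-receptor, 1.86-fold lower (1.48 to 2.36). Against control skin *Fzd1* was 2.17-fold higher (1.32 to 3.78) in retinol skin, and *Fzd10*, another Frizzled receptor, 2.49-fold lower (1.12 to 5.15). Among secreted inhibitors and other brakes, 1 of 6 was lower with retinol and 2 of 5 with 9-cis HPR than in UVR skin, and 1 of 5 was higher in UVR than in control skin, with medians of -0.58, -0.72 and -0.52. *Sfrp1*, which binds Wnt ligands outside the cell, was 1.91-fold higher (1.48 to 2.48) with retinol and 1.80-fold higher (1.37 to 2.36) with 9-cis HPR than in UVR skin. *Sostdc1*, an inhibitor of Wnt and BMP signals, was 3.65-fold lower (1.99 to 7.32) with 9-cis HPR.

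The 11 measured genes that act on the signal inside the cell included both carriers and brakes. Of them, 1 was higher and 2 lower with retinol, and none higher and 1 lower with 9-cis HPR. In UVR over control skin 3 were higher and 2 lower. The medians were -0.41, -0.47 and -0.10. The 2 lower with retinol, *Axin1* and *Gsk3a*, are brakes, and the 1 higher was *Bcl9*. *Axin1* and *Gsk3a* were also higher in UVR over control skin, each on 1 control UMI and within counting error. *Axin1*, *Gsk3a* and *Bcl9* are named after their values were seen. *Ctnnb1*, the gene of beta-catenin, had 33.2 CPM in retinol, 43.4 in HPR, 60.2 in UVR and 86.1 CPM in control skin. It was 1.81-fold lower (1.26 to 2.67) in retinol than in UVR skin, and the ratios of HPR over UVR and of UVR over control skin lay within counting error. Against control skin it was 2.60-fold lower (1.35 to 4.75) in retinol and 1.98-fold lower (1.04 to 3.58) in HPR skin.

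Of the measured targets of beta-catenin, none but *Ccnd1* passed 2-fold in treated over UVR skin. The list had 1 of 6 measured genes lower with retinol and 1 of 5 with 9-cis HPR, *Ccnd1* itself in both, and in UVR over control skin 1 of 4 higher, again *Ccnd1*, and 1 lower, *Axin2*. The medians were 0.07, -0.53 and -0.71. *Axin2*, the negative feedback gene most often read as pathway output, had 190 CPM in retinol, 125 in HPR, 112 in UVR and 269 CPM in control skin. It was 2.40-fold lower (1.74 to 3.27) in UVR than in control skin and 1.70-fold higher (1.41 to 2.04) in retinol than in UVR skin, and the ratio with 9-cis HPR, 1.12 (0.896 to 1.40), lay within counting error. *Axin2* was also below control skin in both treated skins, with ratios of 0.705 (0.517 to 0.978) in retinol and 0.466 (0.333 to 0.660) in HPR skin. *Myc*, a growth regulator, was 1.59-fold lower (1.24 to 2.00) in UVR than in control skin, where *Ccnd1* was higher. *Myc* was also 1.62-fold lower (1.25 to 2.07) in retinol and 2.29-fold lower (1.75 to 2.98) in HPR than in control skin. It was 1.45-fold lower (1.23 to 1.71) in HPR than in UVR skin. *Cd44*, an adhesion receptor, was 1.75-fold lower (1.23 to 2.52) in retinol than in UVR skin. Against control skin it was 2.94-fold lower (1.64 to 5.11) in retinol skin, and its ratios in HPR and UVR skin lay within counting error.

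**Figure D5:**
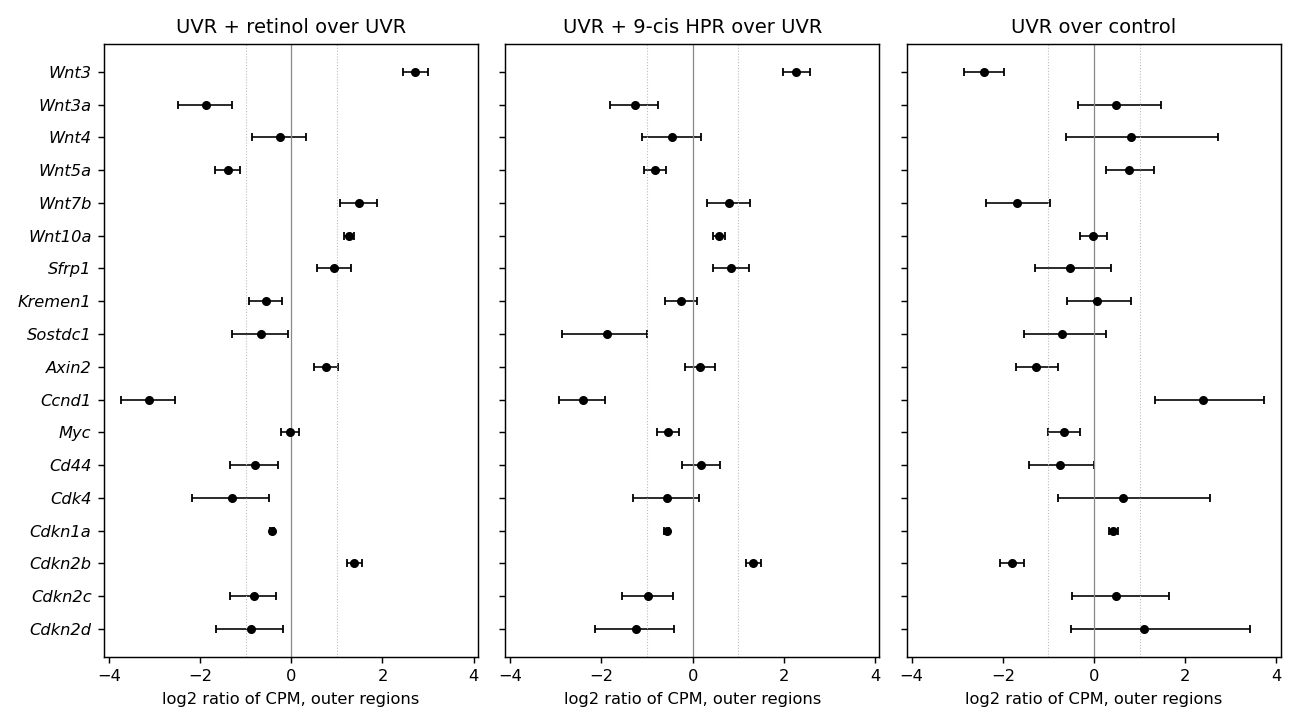
Log2 ratios of CPM in outer regions with exact 95% counting intervals for listed Wnt ligands, inhibitors, targets, D-type cyclin partners and kinase inhibitors with at least 100 UMIs over the outer spots of the sections. Dotted lines mark 2-fold. Among the genes shown, *Wnt3* and *Ccnd1*, which were chosen by their levels, lie farthest from 0 in both treated over UVR panels. They lie at 2.71 and -3.11 with retinol and at 2.27 and -2.41 with 9-cis HPR. *Wnt16*, with too few UMIs to be shown, had 3.03 with 9-cis HPR.

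Of 5 measured genes of D-type cyclins and their partners, *Ccnd1* among them, 3 were at least 2-fold lower in each treated skin than in UVR skin, with medians of -1.11 and -1.02. They were *Ccnd1*, *Ccnd3* and *Cdk4* with retinol, and *Ccnd1*, *Ccnd3* and *E2f1* with 9-cis HPR. In UVR over control skin 2 of 5 were higher, *Ccnd1* and *Cdk6*, with a median of 0.63. The *Cdk6* ratio there, 3.06 (0.514 to 124), rested on 1 control UMI. In retinol over UVR skin *Cdk6* had a ratio of 1.60 (0.956 to 2.68), within counting error. *Ccnd3*, *Cdk6* and *E2f1* are named after their values were seen. *Cdk4*, a catalytic partner of cyclin D1, had 13.6 CPM in retinol, 22.7 in HPR, 33.4 in UVR and 21.5 CPM in control skin, where it had 4 UMIs. It was 2.45-fold lower (1.41 to 4.52) in retinol than in UVR skin, and its other ratios lay within counting error. Of the later cyclins and kinases, *Ccna2*, *Cdk1* and *Cdk2* were measured, named after their values were seen. All 3 were lower with retinol and *Cdk2* with 9-cis HPR, with 17 and 26 UMIs over the whole list in retinol and HPR skin against 102 in UVR skin, and the medians were -1.88 and -0.70. The ratios of *Ccna2* with retinol, 0.426 (0.104 to 1.31), and of *Cdk2* with 9-cis HPR, 0.315 (0.0599 to 1.06), lay within counting error. *Ccna2* and *Cdk2* had 17 and 20 UMIs in UVR skin and met the minimum of 20 only with these, which favours a lower ratio. In UVR over control skin *Cdk1* had a ratio of 1.43 (0.460 to 7.16), and *Cdk2*, with 20 UMIs in UVR and 0 in control skin, could not be placed on either side of 2-fold.

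Among inhibitors of these kinases, 1 of 5 was higher with retinol, 1 higher and 1 lower with 9-cis HPR, and 1 higher and 1 lower in UVR over control skin, with medians of -0.42, -0.57 and 0.42. *Cdkn2b*, whose product blocks CDK4 and CDK6, had 617 CPM in retinol, 596 in HPR, 236 in UVR and 829 CPM in control skin, lowest in the section with most *Ccnd1*. It was 2.61-fold higher (2.33 to 2.93) with retinol and 2.52-fold higher (2.24 to 2.84) with 9-cis HPR than in UVR skin, and 3.50-fold lower (2.91 to 4.21) in UVR than in control skin. *Cdkn1a*, a damage-induced inhibitor, was 1.34-fold lower (1.30 to 1.38) with retinol and 1.48-fold lower (1.43 to 1.54) with 9-cis HPR than in UVR skin, and 1.34-fold higher (1.25 to 1.43) in UVR than in control skin.

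Most measured genes of DNA replication and division were lower in treated and higher in UVR skin, as *Ccnd1* was. Of 10 measured, 9 were at least 2-fold lower in each treated skin than in UVR skin, with medians of -1.47 and -1.67, and 6 of 10 were at least 2-fold higher in UVR than in control skin, with a median of 1.28. Of the 10, 1 had no UMI in control skin and enters as a lower bound, at 3 counts there. *Mcm4*, *Mcm5*, *Tyms* and *Aurkb*, counted as higher, had 2, 1, 1 and 2 control UMIs. Of these, *Tyms* (0.765 to 179) and *Aurkb* (0.646 to 20.7) lay within counting error. *Mki67* had ratios of 0.667 for retinol over UVR, 1.11 for HPR over UVR and 0.830 for UVR over control skin, all within counting error. *Mki67*, *Tyms* and *Aurkb* are named after their values were seen. *Mcm2*, a subunit of the replicative helicase, had 243 CPM in retinol, 256 in HPR, 661 in UVR and 242 CPM in control skin. *Mcm3*, of the same helicase, was 3.56-fold lower (3.0 to 4.24) with retinol and 2.92-fold lower (2.47 to 3.46) with 9-cis HPR than in UVR skin.

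The genes whose pattern was most like that of each member were taken by Pearson r of log2(CPM + 10) over 12 profiles, the outer, middle and muscle layers of the 4 sections, among 2380 genes with at least 200 UMIs. These profiles share libraries and layers, so r is a description. For *Wnt3* they were *Herpud1* (r = 0.93), *Mmp28*, *Wnt7b*, *Tmem11* and *Srcin1*, all at 0.93. For *Ccnd1* they were *Dpp3* (r = 0.94), *Gsto1* (0.91), *Mcm2* (0.91), *Rnaseh2c* (0.90) and *Hist1h3b* (0.88). *Mmp28*, a metalloproteinase gene, had 117 CPM in outer spots of retinol skin, 91.8 in HPR, 28.2 in UVR and 129 CPM in control skin, and *Srcin1* had 1695, 1557, 341 and 3132 CPM. *Herpud1* had 1540.2, 1138, 858 and 1135 CPM and *Tmem11* 416, 375, 333 and 371 CPM, so these 2 differed less between sections than *Wnt3*. Between *Wnt3* and *Ccnd1* r was 0.40, both being low outside the outer layer.

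Marker sums in the outer layer also differed between the sections, and not all in the order of the members. The stress keratins *Krt6a*, *Krt6b*, *Krt16* and *Krt17*, known from injured and hyperproliferative epidermis, summed to 6278 CPM in retinol, 8467 in HPR, 27495 in UVR and 920 CPM in control skin, highest where *Ccnd1* was highest. Basal markers summed to 35784, 32237, 60083 and 25517 CPM in the same order, a sum carried by *Krt5* and *Krt14*. Of the other 6 basal markers, *Krt15* was 7.06-fold lower (4.55 to 10.8), *Dst* 3.92-fold lower (1.85 to 7.74) and *Col17a1* 1.90-fold lower (1.32 to 2.67) in UVR than in control skin, against the direction of the sum, and *Itga6*, *Itgb4* and *Trp63* lay within counting error. Spinous and cornified markers summed to 22131, 31520, 30626 and 102266 CPM, of which *Lor* gave 12491, 21289, 16175 and 77890 CPM. In UVR over control skin *Cdsn* was 2.34-fold higher (2.03 to 2.71), against the direction of the sum, and *Casp14* lay within counting error. *Krt1*, *Krt10*, *Krt77*, *Flg*, *Flg2*, *Hrnr* and *Crct1* were lower there, *Crct1* by 1.19-fold (1.14 to 1.24). Of the other cell types, the 8 fibroblast markers summed to 441 CPM in retinol, 939 in HPR, 225 in UVR and 479 CPM in control skin, with 6, 6, 8 and 5 detected and *Pdgfra* at 0 in all but UVR skin. The 9 macrophage and dendritic cell markers summed to 422, 442, 106 and 915 CPM, with 6, 7, 7 and 5 detected and *Lyz2* and *Adgre1* at 0 in every section. This sum was carried by *Cd74*, at 129, 194, 39.0 and 646 CPM, and *H2-Ab1*, at 282, 230, 53.6 and 226 CPM. Against control skin *Cd74* was 4.99-fold lower (3.90 to 6.39) in retinol and 3.32-fold lower (2.62 to 4.19) in HPR skin, and *H2-Ab1* lay within counting error in both. Markers of muscle summed to 243, 313, 868 and 1399 CPM. The part of these markers in the levels of *Wnt3* and *Ccnd1* was not tested.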

How the data were processed

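Spatial libraries of 4 skin sections on 2 capture areas were made with a probe-based Visium kit from sections frozen in OCT medium, per the labels' protocols. The deposited counts are UMIs per gene and spot, and the submitters' processing notes name Space Ranger 2.0.0, mm10 and Seurat 4.1.0 as used by the authors. Sections were taken from the labels' upper and lower positions, read by image row. Spots with at least 200 UMIs were kept, and UMIs were summed per section and layer and divided by the total (CPM).

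Layers came from Leiden clustering (scanpy 1.11.5, igraph 0.11.9, resolution 0.5, 20 components, 15 neighbours, 2000 variable genes without 127 member and pathway genes). Each gene was scaled to unit variance, a step added after the planned clustering mixed dermal and epidermal spots. Intervals are exact Poisson for levels, exact Clopper-Pearson for ratios and shares, at 95%. With 1 section per group there was no test and no p-value. A gene counted as higher or lower past 2-fold, with at least 100 UMIs over both sections (20 for lists), and 0 was set to 3 counts.

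Named genes were the members, pathway list members with at least 100 UMIs, the 5 most like each member and marker genes; a region's leading genes and macrophage markers at 0 were named after their values were seen. The members and lists were chosen with earlier results of these data known. Alternatives covered the spot minimum, scaling, the reading of positions, image sides, layers, pseudocount, clustering and thinning. The bin of 1000 to 5000 UMIs and clustering without scaling were added after the data were seen. The ratios and their intervals were tested on simulated Poisson counts without spread between animals. Clustering, layer naming, the basal to cornified order, thinning and co-occurrence were not simulated.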

Additional observations from a re-analysis of the deposited data

How the results depend on the processing

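The log2 ratios of *Wnt3* and *Ccnd1* for retinol over UVR, HPR over UVR and UVR over control skin, in whole sections and outer regions, kept their direction in 126 of 126 values under alternatives other than the grid reading and stayed past 2-fold in 125 of them. The exception was *Ccnd1* in left sides of whole sections, at 106 CPM in UVR and 53.0 CPM in control skin. In outer regions they ranged from 2.41 to 3.12, 2.11 to 2.43 and -2.87 to -2.05 for *Wnt3*, and from -3.72 to -2.66, -3.07 to -1.44 and 1.17 to 3.59 for *Ccnd1*. The ratios of treated over control skin, which were not past 2-fold in outer regions, kept their direction in 67 of 84 values.

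Read by the spot grid, which exchanges the groups, 6 of 12 kept their direction. In the order retinol over UVR, HPR over UVR, retinol over control, HPR over control and UVR over control skin, the whole-section values became 0.31, 0.80, 2.26, 2.75 and 1.95 for *Wnt3*, and 0.17, -0.44, -2.32, -2.92 and -2.48 for *Ccnd1*. In outer regions they became -0.14, 0.30, 2.27, 2.71 and 2.41 for *Wnt3*, and -0.01, -0.71, -2.41, -3.11 and -2.40 for *Ccnd1*.

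In left sides *Wnt3* moved to 3.16 whole and 3.12 outer for retinol over UVR, to -0.07 whole for HPR over control and to -2.40 whole for UVR over control skin. Left sides gave *Ccnd1* -1.27 whole and -1.44 outer for HPR over UVR, -2.34 and -2.37 for retinol over control, and 1.0 and 1.17 for UVR over control skin. In right sides *Wnt3* was 2.45 whole and 2.41 outer for retinol over UVR skin. Right sides gave *Ccnd1* -3.08 whole and -3.07 outer for HPR over UVR, 1.55 whole for retinol over control, and 4.26 whole for UVR over control skin. With layers weighted alike, *Wnt3* was 0.41 for retinol and -0.08 for HPR over control skin in whole sections. In spots of 1000 to 5000 UMIs outer values were 2.41, -0.46 and -2.87 for *Wnt3* in retinol over UVR, retinol over control and UVR over control skin, and -1.80 for *Ccnd1* in HPR over UVR skin, which was -3.0 at equal total UMIs. Causes were not tested.

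Without thinning, *Ccnd1* was more frequent in *Wnt3* spots than in other outer spots by 9.38 percentage points in retinol, 15.4 in HPR and 31.3 in UVR skin. With a minimum of 100, 20 and 200 UMIs, genes past 2-fold in outer regions numbered 125, 380 and 82 higher and 242, 756 and 134 lower for retinol over UVR skin. They numbered 65, 270 and 38 higher and 233, 833 and 122 lower for HPR over UVR skin, 234, 636 and 158 higher and 77, 474 and 43 lower for retinol over control skin, 139, 425 and 90 higher and 82, 452 and 37 lower for HPR over control skin, and 379, 840 and 217 higher and 122, 652 and 71 lower for UVR over control skin. Of the genes most like each member, none for *Wnt3* and *Rnaseh2c* for *Ccnd1* recurred with a pseudocount of 1.

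No paired analysis was possible because each group was 1 section with no replicate number. The limits are 1 section per group, treatment tied to the capture area, the unsettled reading of positions, and depth. Control skin had 7 outer *Ccnd1* UMIs, so its ratios are the widest.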
